A study of Mus musculus with 27 samples.

Results

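The colon arm of a feeding study in mice was examined for the genes whose messenger RNA differed between arsenic-containing feed and standard feed. It held 9 of the 27 RNA sequencing libraries of the study, and the other 18 came from the ileum and the cecum. The members were taken by the labels alone: the 5 colon libraries of mice on standard feed (controls 1, 2, 3, 4 and 5) and the 4 colon libraries of mice on standard feed with arsenic (arsenic 11, 12, 13 and 15). All mice were male C57BL/6, 6 weeks old before 7 days of acclimatisation, and 10 mice were assigned to each diet for 60 days. The arsenic feed held 30 µg of total arsenic per g, of which 72.7% was arsenite, 19.0% dimethylarsinic acid (DMA), 7.3% arsenate and 1.0% monomethylarsonic acid (MMA), and the series' design text speaks of rats where the labels of every sample name mice. Each library was made from 2 µg of RNA by poly-T selection and was sequenced in 150 bp paired reads. The labels do not state that each library of a group came from its own mouse, so p-values measure the spread between these libraries, whatever its source.

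Arsenite binds the thiol groups of proteins, and cells exposed to a high dose in culture induce heat shock proteins, metallothioneins and the antioxidant genes controlled by NRF2. Heat shock proteins are chaperones that keep other proteins folded, and their genes are switched on by the factor HSF1 at heat shock elements. The unfolded protein response is the matching programme of the endoplasmic reticulum, where secreted and membrane proteins such as mucins fold. Sterol synthesis is raised by the factor SREBP2 when the membranes of a cell run short of cholesterol. The comparison asks at which level these programmes stood in the colon after 60 days of arsenic in the feed.

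The 9 libraries held 16429521 to 17744718 counts, and neither the total (exact permutation test over the 126 splits, two-sided, p = 0.317) nor the mitochondrial share (p = 0.0873, the same exact test) separated the diets. More genes had at least 1 count on arsenic, 23534 to 23804 against 22695 to 23489 in the controls, and these ranges did not overlap (exact permutation p = 0.0317). The pieces of colon were not from matching positions. Hox genes keep a record of position along the gut, and Hoxb13, a gene of the most distal colon, was at 0.0 CPM (read counts scaled to library size, here over all 27 libraries) in control 1 and at 40.2 to 239 CPM in the other 8. In the cecum libraries Hoxb13 did not pass 0.0634 CPM.

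Control 1 also went against the distal colon in Mptx1, a pentraxin-like gene of the colon, with 0.900 CPM against 268 to 4893 CPM in the other 8 libraries. In Osr2, by contrast, it was at 181 CPM while no cecum library passed 21.6 CPM. Across genes it was closer to the other colon libraries (Pearson r = 0.975) than to the control cecum (r = 0.967). Yet it was the least like the colon and the most like the cecum of the 9. The other 8 had r of 0.982 to 0.995 with the colon and 0.940 to 0.960 with the control cecum. A Hox position score was taken as the mean log2(CPM + 0.5) of a list of posterior Hox genes minus that of a list of anterior and middle Hox genes. It was -0.59 in control 1, 0.55 in control 2, 1.86 in control 3, 1.69 in control 4 and 0.29 in control 5. In the arsenic libraries it was 1.70, 0.39, 0.64 and 0.76, in the order 11, 12, 13 and 15. The mean score did not separate the diets (exact permutation p = 0.77), which does not show that their positions matched. Control 1 lay within the control cecum range of -0.645 to -0.529, and no arsenic library was that low. The slope on this score passed the test in 4351 of 16492 genes (26.4%), so a fit with the score as a covariate is given beside the plain comparison.

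**Figure D1:**
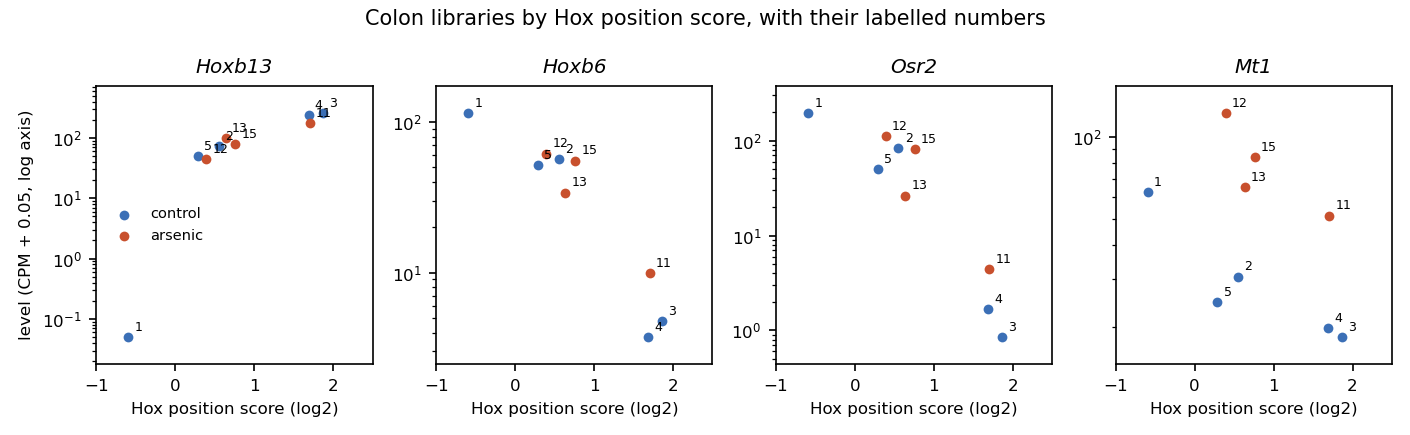
Levels of Hoxb13, Hoxb6, Osr2 and Mt1 in CPM on a log axis (0.05 CPM was added so that 0 can be drawn) against the Hox position score of each colon library, with blue points for control and red points for arsenic feed and each library's labelled number beside its point. Control 1 stands at the left with no Hoxb13 count, controls 3 and 4 and arsenic 11 stand at the right, and the arsenic points of Mt1 lie above control points of like score.

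Pancreatic enzyme transcripts were also present in some pieces. Pnlip, pancreatic lipase, was at 165 CPM in control 2, 135 CPM in control 3 and 33.0 CPM in arsenic 11, and under 1 CPM in the other 6. The summed level of the pancreas markers other than Cela1, which the gut also expresses, ran from 0.688 to 874 CPM in the controls and from 2.22 to 171 CPM on arsenic. None of the 7 pancreas markers that could be tested was called. Their part in the results was not tested beyond leaving out those 3 libraries, whose effect is given with the counts. The distal marker Hoxb13 was thus present in 8 of the 9 libraries labelled colon, and Car1, the carbonic anhydrase of colonocytes, was at 1190.4 to 13037 CPM in all 9.

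Of 52550 genes in the table, 16492 had enough counts to be tested in the colon, and 107 (0.649%) differed between the diets at a Benjamini-Hochberg adjusted p under 0.05 in edgeR's quasi-likelihood test. Of these, 60 (0.364%) were higher on arsenic and 47 (0.285%) were lower. The 4 arsenic libraries did not overlap the 5 control libraries in any of the 107. These genes were picked by a test on the same libraries, so this separation is no further support. Over all genes tested the groups failed to overlap in 7.89%. The changes were small to moderate: 15 genes rose and 6 fell by more than 2-fold, and the median change over all genes was -0.01 on the log2 scale. An unadjusted p under 0.05 was reached by 2405 genes (14.6%).

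The count of calls depended on the test and on which libraries were in the fit. On the same 9 libraries DESeq2 called 592 genes and limma voom with sample weights 609, with all 107 among them in both. With the Hox position score as a covariate, chosen after seeing the data, 1010 genes (6.12%) passed, among them all 107, with 3.21% of all genes higher and 2.91% lower. Without control 1 there were 351 calls (2.14%; 1.1% higher and 1.04% lower), again with all 107 among them. Without any other single library there were 6 to 61 calls, the fewest when arsenic 13 was left out. With the 3 libraries that held pancreatic transcripts left out together there were none (1275 at an unadjusted p under 0.05). That fit also had smaller groups of both diets, so the pancreatic transcripts and the loss of libraries cannot be told apart. All 107 genes kept the sign of their change in every alternative that was run. Their groups do not overlap, so leaving out libraries could hardly turn a sign, and the kept signs are no further support. As bulk tissue was sequenced, a change in the number of cells of a type and a change in the RNA of each cell cannot be told apart.

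**Figure D2:**
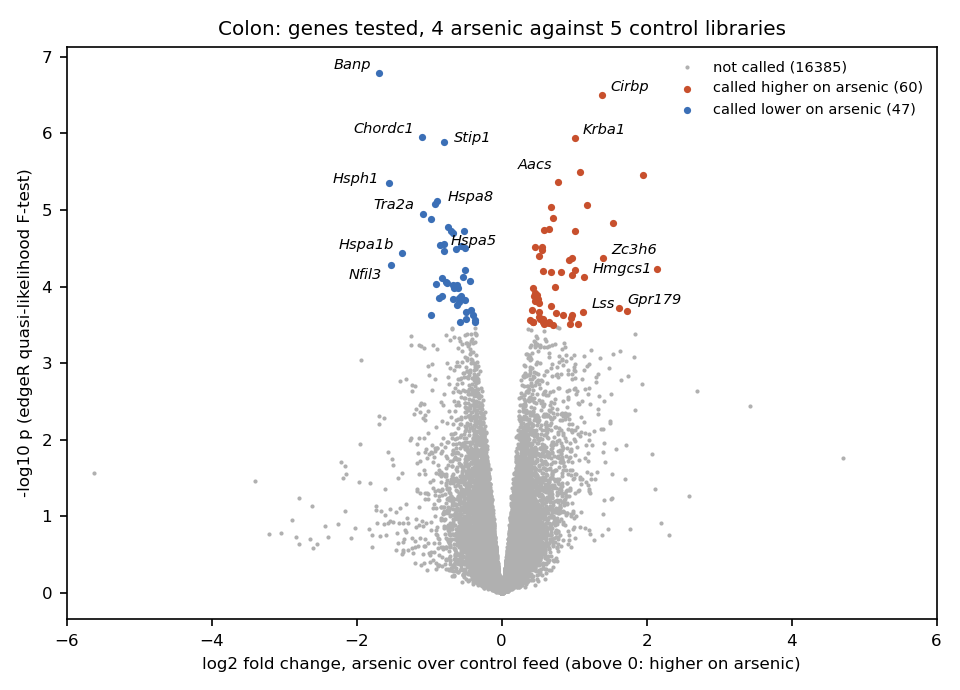
Each point is 1 of the 16492 genes tested in the colon, placed by its log2 fold change (x axis, above 0 means higher on arsenic) and its -log10 p (y axis). The 60 genes called higher and the 47 called lower are coloured, with Banp and Chordc1 at the top of the falls and Cirbp and Krba1 at the top of the rises.

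The cytosolic chaperones were lower on arsenic. Of the 28 heat shock genes examined, 8 fell, none rose, and the rest did not pass the test, while 0.285% of all genes were called lower. The median over all 28 was -0.39 on the log2 scale, beside -0.01 over all genes. In 16 of the 28 every arsenic library lay below every control library, against 3.66% of all genes. The members that fell were Hsph1, Hspa1b, Chordc1, Dnaja1, Hspa8, Stip1, Hsp90aa1 and Hspa4l.

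Hsph1, an HSP110 exchange factor that resets HSP70, had the largest change of the list. In the order given above, it was at 133, 92.6, 80.8, 92.8 and 108 CPM in controls 1 to 5, and at 44.5, 26.8, 34.0 and 33.2 CPM in arsenic 11, 12, 13 and 15. The lowest control was thus well above the highest arsenic library. On the log2 scale Hsph1 fell by 1.55 ± 0.18 (SE; edgeR, adjusted p = 0.00822). Chordc1, a partner of HSP90, was at 77.4, 58.6, 64.2, 75.1 and 63.5 CPM in the controls and at 30.7, 28.3, 35.0 and 33.0 CPM on arsenic. It fell by 1.09 ± 0.11 (edgeR, adjusted p = 0.00433) and was called with any single library left out.

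The promoters of these genes show the heat shock element, and they are printed because Hsph1 and Chordc1 are the 2 called heat shock genes in whose window the motif was found. The windows run from 250 bases before to 50 bases after a RefSeq gene start (GRCm38.p6); they say nothing on whether HSF1 was bound in this tissue. The capitals mark the heat shock element as searched, 3 units that alternate GAA and TTC with 2 bases of any kind between units, on either strand. Hsph1 (minus strand, chr5:149636266-149636565) has 1 match after the start, and Chordc1 (plus strand, chr9:18292017-18292316) has 3 that overlap each other at the start.
Hsph1: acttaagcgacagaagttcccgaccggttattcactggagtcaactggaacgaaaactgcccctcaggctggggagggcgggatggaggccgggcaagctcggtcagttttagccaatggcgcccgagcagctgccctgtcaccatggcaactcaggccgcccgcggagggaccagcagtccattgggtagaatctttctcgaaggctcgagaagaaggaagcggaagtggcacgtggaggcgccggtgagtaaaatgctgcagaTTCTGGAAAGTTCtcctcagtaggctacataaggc
Chordc1: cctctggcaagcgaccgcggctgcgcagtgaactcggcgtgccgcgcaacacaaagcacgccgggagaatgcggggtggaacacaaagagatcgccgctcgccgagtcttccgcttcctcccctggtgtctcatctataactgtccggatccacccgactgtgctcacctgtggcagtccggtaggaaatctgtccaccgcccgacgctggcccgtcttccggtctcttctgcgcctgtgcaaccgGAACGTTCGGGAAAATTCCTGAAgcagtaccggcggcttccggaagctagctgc
Windows with such a match made up 0.603% of the 32851 windows in the table and were found for 0.564% of the tested genes with a window. Among the heat shock genes tested, 5 of the 22 with a window had one, and among the 6 called members with a window, 2 had one.

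Hspa1b encodes the stress-inducible HSP70. It was at 162, 102, 99.1, 109 and 72.1 CPM in the controls and at 43.5, 39.1, 42.7 and 42.9 CPM on arsenic. The arsenic libraries were nearly level, and control 1 stood highest. Hspa1b fell by 1.37 ± 0.20 (edgeR, adjusted p = 0.0176), and by 1.18 without control 1 (adjusted p = 0.00523, edgeR). It was called in 4 of the 9 fits that leave out a library, with an adjusted p of up to 0.0907 in edgeR. Its neighbour Hspa1a, a near-identical copy with which it can exchange reads, had a log2 change of -1.19 ± 0.29 (edgeR, adjusted p = 0.0967).

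Hspa8, the constitutive HSC70, was at 2182, 1683, 1646, 1947 and 1759 CPM in the controls and at 975, 958, 980.2 and 1078 CPM on arsenic. It fell by 0.89 ± 0.11 (edgeR, adjusted p = 0.0116). Its J-domain partner Dnaja1 was at 184 to 261 CPM in the controls and 95.9 to 116 CPM on arsenic, and fell by 0.98 ± 0.13 (edgeR, adjusted p = 0.0134). Stip1, which hands clients from HSP70 to HSP90, was at 87.0 to 97.9 CPM in the controls and 46.6 to 57.4 CPM on arsenic. Its fall of 0.80 ± 0.08 (edgeR, adjusted p = 0.00433) was called with any single library left out. Hsp90aa1, the inducible HSP90, fell by 0.67 ± 0.09, and Hspa4l, another HSP110, by 0.63 ± 0.09 (edgeR, adjusted p = 0.0139 and 0.0169).

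Other members gave smaller values that did not pass. Dnajb1, a J-domain partner of inducible HSP70, had a log2 change of -0.38 ± 0.09 with no overlap of the groups, Hsp90ab1 of -0.38 ± 0.12, and Hsf1 itself of -0.22 ± 0.10 with overlap. Hspb1 and Cryab, small heat shock proteins, had changes of 0.30 ± 0.22 and -0.05 ± 0.14. The 8 subunits of the cytosolic chaperonin, which folds actin and tubulin, had none called and a median of -0.13. With the Hox position score as a covariate, 16 of the 28 heat shock genes passed, all lower, against 2.91% of all genes called lower. Without control 1, 11 passed, all lower, against 1.04% of all genes, and without any of the arsenic libraries 2 or 3 did. Without controls 2 and 3 and arsenic 11, none did, while the median was -0.53 and 26 of 28 changes stayed below 0.

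**Figure D3:**
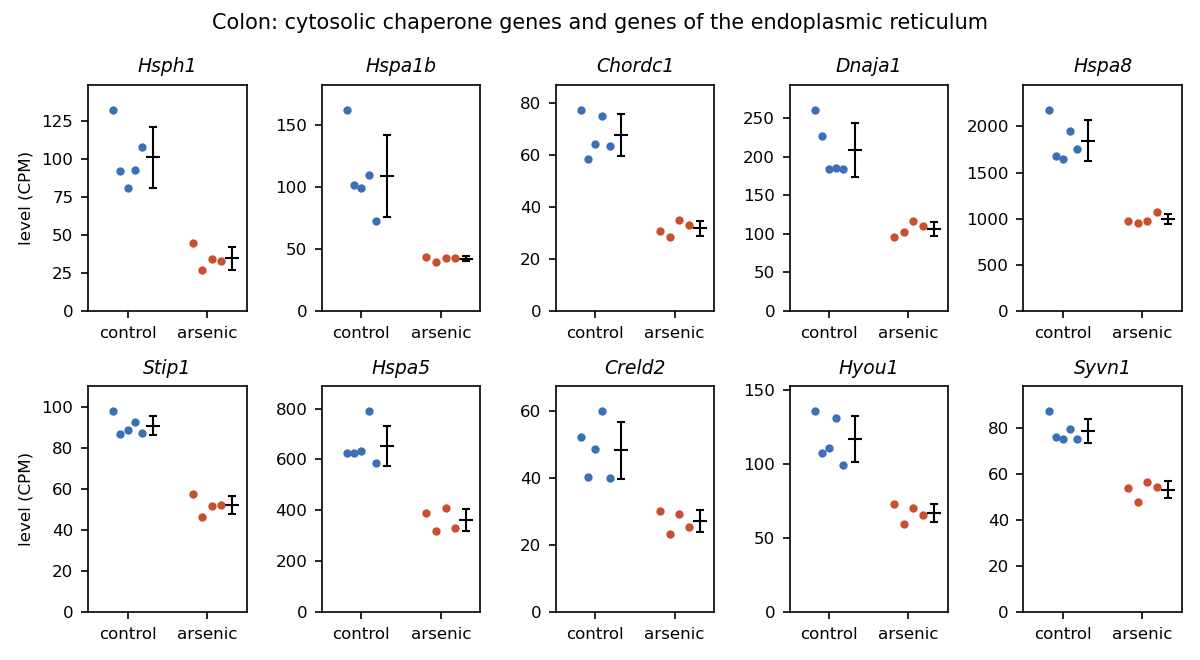
Level in CPM (y axis, from 0) of 6 cytosolic chaperone genes and 4 genes of the endoplasmic reticulum in the 5 control (blue) and 4 arsenic (red) colon libraries, with the mean and SD of each group as a black bar. In each of the 10 genes the arsenic libraries lie below all controls, as for Hspa8 with 958 to 1078 CPM against 1646 to 2182 CPM.

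The chaperones of the endoplasmic reticulum were lower as well. Of 26 genes of the unfolded protein response, 5 fell and none rose, with a median of -0.36, and in 13 the groups did not overlap in the lower direction. Over all genes 0.285% were called lower and 3.66% did not overlap in that direction. Those called were Hspa5, Creld2, Hyou1, Syvn1 and Hspa13. Hspa5, which encodes BiP, the HSP70 of the endoplasmic reticulum, was at 626, 626, 632, 790 and 585 CPM in the controls and at 391, 318, 410.2 and 333 CPM on arsenic. The highest value was that of control 4, and the lowest control stood above the highest arsenic library. Hspa5 fell by 0.84 ± 0.12 (edgeR, adjusted p = 0.0169).

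Creld2, a disulfide-handling protein secreted under stress, was at 52.3, 40.3, 48.8, 60.0 and 40.0 CPM in the controls and at 30.4, 23.5, 29.4 and 25.5 CPM on arsenic, and fell by 0.83 ± 0.14 (edgeR, adjusted p = 0.0338). Hyou1, the HSP110 of this compartment, fell by 0.80 ± 0.11 from 99.1 to 136 CPM in the controls to 59.4 to 72.7 CPM on arsenic (edgeR, adjusted p = 0.0169). Syvn1, the ubiquitin ligase that removes misfolded proteins, fell by 0.56 ± 0.08, and Hspa13 by 0.53 ± 0.08 (edgeR, adjusted p = 0.0169 and 0.0255).

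The promoters of Hspa5 and Creld2 are shown because the endoplasmic reticulum stress element was present in all 3 called members of this list that had a window. Capitals mark CCAAT and CCACG with 9 bases of any kind between them, searched on both strands. The Hspa5 window is chr2:34771840-34772139 on the plus strand and the Creld2 window is chr15:88819396-88819695 on the plus strand, both of GRCm38.p6.
Hspa5: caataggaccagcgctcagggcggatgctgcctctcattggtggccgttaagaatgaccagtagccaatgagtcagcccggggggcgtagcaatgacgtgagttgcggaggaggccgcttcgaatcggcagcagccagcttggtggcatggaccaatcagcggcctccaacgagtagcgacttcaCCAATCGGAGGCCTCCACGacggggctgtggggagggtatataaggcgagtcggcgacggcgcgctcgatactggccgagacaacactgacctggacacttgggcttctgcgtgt
Creld2: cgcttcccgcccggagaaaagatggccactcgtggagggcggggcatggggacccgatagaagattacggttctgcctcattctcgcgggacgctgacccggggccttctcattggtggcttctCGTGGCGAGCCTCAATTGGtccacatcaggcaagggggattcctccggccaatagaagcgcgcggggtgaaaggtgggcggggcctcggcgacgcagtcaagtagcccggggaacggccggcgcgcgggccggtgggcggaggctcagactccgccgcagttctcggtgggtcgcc
The element was in 0.119% of all windows, in 0.16% of the tested genes with a window and in 9 of the 20 tested members with a window. A match describes the letters and not the use of the site.

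The sensors and factors of the response were not called. Xbp1 had a log2 change of -0.35 ± 0.09 and did not overlap between the diets, Ern1 of -0.18 ± 0.20, Atf6 of -0.10 ± 0.14, and Ern2, the sensor of mucus-secreting cells, of 0.21 ± 0.32. Calr, calreticulin, and Pdia4, a disulfide isomerase, had changes of -0.41 ± 0.08 and -0.55 ± 0.12 with adjusted p of 0.0616 and 0.077 in edgeR. With the Hox position score as a covariate 15 of the 26 passed, all lower, against 2.91% of all genes called lower. Without control 1, 8 passed, all lower, against 1.04% of all genes, and 3 did without control 2, 3 or 4. Without any of the 4 arsenic libraries none did, nor without controls 1, 3 and 4 or without controls 2 and 3 and arsenic 11, while the median stayed between -0.41 and -0.27 in every alternative. The 17 genes of the integrated stress response had 0 called, with a median of -0.07.

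Sterol synthesis moved the other way. Of 25 genes of the pathway and its uptake arm, 8 rose and none fell, against 0.364% of all genes called higher. The median was 0.74 on the log2 scale. In 16 of the 25 all arsenic libraries lay above all controls, against 4.23% of all genes. The risers included enzymes from the entry of the pathway (Hmgcs1), through the mevalonate steps (Mvk and Mvd), to squalene (Fdft1), lanosterol (Lss) and a later step (Hsd17b7).

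Hmgcs1, the synthase that supplies HMG-CoA, was at 118, 171, 176, 181 and 188 CPM in the controls and at 447, 266, 430.2 and 323 CPM on arsenic. Control 1 was lowest, and the rise was 1.14 ± 0.18 (edgeR, adjusted p = 0.0255), or 1.03 without control 1.

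Mvd was at 25.2, 24.8, 21.0, 23.0 and 23.6 CPM in the controls and at 56.0, 35.8, 54.6 and 38.4 CPM on arsenic, a rise of 0.97 ± 0.14 (edgeR, adjusted p = 0.019). Fdft1, squalene synthase, was at 64.7, 86.9, 88.6, 84.2 and 85.8 CPM in the controls and at 184, 122, 179 and 143 CPM on arsenic, a rise of 0.94 ± 0.14 (edgeR, adjusted p = 0.0195). Arsenic 11 and 13 were the highest and arsenic 12 the lowest for Hmgcs1, Mvd, Fdft1 and Lss. Lss rose by 1.13 ± 0.20, Hsd17b7 by 0.82 ± 0.13 and Mvk by 0.71 ± 0.13 (edgeR, adjusted p = 0.0437, 0.0237 and 0.0487). Aacs, which feeds acetoacetate into lipid synthesis and was not in the list, rose by 0.78 ± 0.09 (edgeR, adjusted p = 0.00822).

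The promoter of Hmgcs1 is shown as the called sterol gene with a sterol regulatory element in its window. The capitals mark TCACNCCAC (chr13:119690101-119690400, plus strand, GRCm38.p6).
Hmgcs1: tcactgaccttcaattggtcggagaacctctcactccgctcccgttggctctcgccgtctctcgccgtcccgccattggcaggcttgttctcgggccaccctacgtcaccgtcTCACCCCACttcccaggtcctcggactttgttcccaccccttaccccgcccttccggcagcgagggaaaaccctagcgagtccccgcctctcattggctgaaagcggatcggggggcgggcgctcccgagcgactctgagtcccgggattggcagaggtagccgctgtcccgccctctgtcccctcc
This motif was in 1.24% of all windows, in 1.38% of the tested genes with a window and in 1 of the 17 tested sterol genes that had a window; Fdft1 had none to search.

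Some enzymes of the same pathway were not called. Dhcr7, the last step to cholesterol, was at 91.1 to 114 CPM in the controls and 84.4 to 94.9 CPM on arsenic, a change of -0.23 ± 0.09. Tm7sf2 and Ebp had changes of -0.18 ± 0.12 and -0.10 ± 0.13, and Srebf2, which encodes SREBP2, of 0.23 ± 0.09, all with overlap. Insig1, the retention factor that holds SREBP2 back, was at 41.1, 88.9, 173, 151 and 105 CPM in the controls and 283, 159, 185 and 169 CPM on arsenic. It was lowest in control 1, and its change of 0.83 ± 0.37 did not pass alone (edgeR, adjusted p = 0.348) but did with the position score as a covariate (0.85, edgeR, adjusted p = 0.00455). In that fit 15 of the 25 passed, all higher, against 3.21% of all genes called higher. Without control 1, 9 passed, all higher, against 1.1% of all genes. With 1 library left out, 5 passed without control 5, 4 without arsenic 12, 1 without control 2, 3 or 4 or arsenic 11 or 15, and none without arsenic 13. None passed either without controls 1, 3 and 4 (median 0.62) or without controls 2 and 3 and arsenic 11 (median 0.74). The 20 genes of fatty acid synthesis had none called and a median of -0.08.

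**Figure D4:**
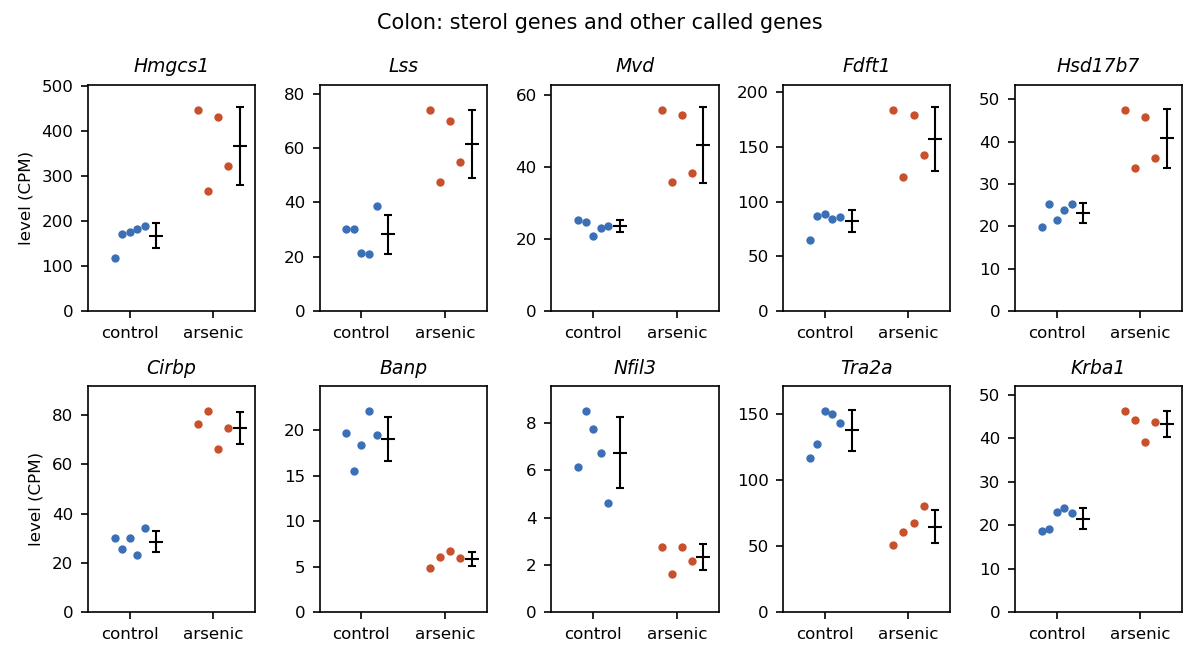
Level in CPM (y axis, from 0) of 5 sterol genes and of Cirbp, Banp, Nfil3, Tra2a and Krba1 in the 5 control (blue) and 4 arsenic (red) colon libraries, with mean and SD as black bars. Arsenic 11 and 13, the first and the third red point, are the highest for Hmgcs1, Lss, Mvd and Fdft1, and Cirbp stands at 66.1 to 81.5 CPM on arsenic against 23.1 to 34.2 CPM in the controls.

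Among single genes, the rise of Cirbp and the fall of Banp were the best separated from the spread. Cirbp encodes an RNA-binding protein that mild cold induces. It was at 30.1, 25.7, 30.1, 23.1 and 34.2 CPM in the controls and at 76.1, 81.5, 66.1 and 74.8 CPM on arsenic. The lowest arsenic library stood far above the highest control, and Cirbp rose by 1.38 ± 0.12 (edgeR, adjusted p = 0.00258). The other cold-inducible gene, Rbm3, was at 57.9 to 100.2 CPM in the controls and 80.4 to 117 CPM on arsenic. Its change of 0.42 ± 0.17 was not called alone (edgeR, adjusted p = 0.305) and was called with the position score as a covariate (0.47, edgeR, adjusted p = 0.00528).

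Banp encodes a factor that binds a palindrome, the BANP motif, in CpG island promoters and activates the genes there. It was at 19.7, 15.5, 18.3, 22.1 and 19.4 CPM in the controls and at 4.83, 6.06, 6.68 and 5.94 CPM on arsenic. No control was close to any arsenic library, and Banp fell by 1.69 ± 0.14 (edgeR, adjusted p = 0.00258). Both Cirbp and Banp were called with any single library left out. The motif was in 0.466% of all windows, in 0.969% of the tested genes with a window, in 3 of the 36 genes called lower that had one, and in none of the 47 called higher. Mettl16, an RNA methyltransferase, fell by 0.65 ± 0.11, and Srsf10, a splicing factor, by 0.50 ± 0.08 (edgeR, adjusted p = 0.0295 and 0.0236). The other such gene was B230354K17Rik, and these names were chosen after their values were seen.

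The Mettl16 window (chr11:74770613-74770912, plus strand) and the Srsf10 window (chr4:135855821-135856120, plus strand), both of GRCm38.p6, are printed with the BANP motif in capitals.
Mettl16: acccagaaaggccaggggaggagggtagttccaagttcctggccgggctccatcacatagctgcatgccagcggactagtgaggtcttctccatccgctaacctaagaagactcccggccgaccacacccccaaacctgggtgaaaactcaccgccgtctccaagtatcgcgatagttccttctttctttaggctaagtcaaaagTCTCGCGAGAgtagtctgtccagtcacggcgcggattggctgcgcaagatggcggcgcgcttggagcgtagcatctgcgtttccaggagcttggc
Srsf10: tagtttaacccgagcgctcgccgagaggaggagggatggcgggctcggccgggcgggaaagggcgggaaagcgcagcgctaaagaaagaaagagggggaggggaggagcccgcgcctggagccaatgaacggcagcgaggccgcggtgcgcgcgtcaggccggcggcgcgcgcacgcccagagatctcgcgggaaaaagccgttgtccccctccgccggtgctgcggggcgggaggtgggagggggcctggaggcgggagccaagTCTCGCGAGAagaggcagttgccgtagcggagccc
Over all 115 tested genes with the motif the median change was -0.02, with 3 called lower, none called higher, and groups not overlapping in 11 lower and 6 higher genes. Over all genes tested, 0.285% were called lower, and 3.66% did not overlap lower and 4.23% higher. With the position score as a covariate 10 of the 115 were called lower and 4 higher, against 2.91% and 3.21% of all genes.

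Tra2a, a splicing activator, was at 116, 127, 152, 149.9 and 143 CPM in the controls and at 50.8, 60.9, 67.2 and 80.1 CPM on arsenic, and fell by 1.09 ± 0.14 (edgeR, adjusted p = 0.0131). With Srsf10 it made up the 2 of 14 SR and CLK splicing genes that fell, against 0.285% of all genes called lower. Tra2b, the paralogue of Tra2a, had a change of -0.43 ± 0.08 (edgeR, adjusted p = 0.0571), and the list's median was -0.06. Rbm14, a coactivator that binds RNA, fell by 0.87 ± 0.15, Zbtb40 by 0.91 ± 0.15, Rfx2, a factor of ciliary genes, by 0.98 ± 0.18, and L3mbtl3, a reader of methylated lysine, by 0.70 ± 0.09. Ttll3, a tubulin glycylase, fell by 0.92 ± 0.11 and Uba6, a ubiquitin-activating enzyme, by 0.79 ± 0.11. In edgeR their adjusted p ran from 0.0116 to 0.0449.

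Nfil3, a repressor in the circadian clock that opposes DBP, was at 6.14, 8.49, 7.75, 6.71 and 4.61 CPM in the controls and at 2.78, 2.75 and 2.18 CPM in arsenic 11, 13 and 15, with arsenic 12 lower still. The groups did not overlap. Nfil3 fell by 1.53 ± 0.23 (edgeR, adjusted p = 0.0219). It was the only one called of 6 tested genes in the list of the activator arm, which also holds the repressor Cry1. Dbp, whose protein competes with NFIL3, was at 28.4 to 52.6 CPM in the controls and 48.2 to 103 CPM on arsenic, a change of 1.00 ± 0.22 that was not called (edgeR, adjusted p = 0.0827). Arntl, the core activator, had a change of -0.73 ± 0.31, and Per1 and Per2 of -0.11 ± 0.19 and -0.15 ± 0.30, all with overlap. The 15 genes of the clock's repressor and output arm had 0 called and a median of 0.26. Of these 15, 6 were higher and 0 lower at an unadjusted p under 0.05 in edgeR, a level that 14.6% of all genes reached in either direction. The hour at which tissue was taken is not given in the sources used here.

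The remaining large rises came from genes with no shared list. Krba1 was at 18.7, 19.3, 23.0, 23.99 and 22.8 CPM in the controls and at 46.2, 44.2, 39.1 and 43.7 CPM on arsenic, and rose by 1.01 ± 0.10 (edgeR, adjusted p = 0.00433), also with any single library left out. Zc3h6, a zinc finger gene, rose by 1.40 ± 0.21 from 2.29 to 4.50 CPM in the controls to 7.13 to 9.83 CPM on arsenic (edgeR, adjusted p = 0.019). Atcayos, annotated antisense to Atcay, was at 0.292 to 1.14 CPM and 2.41 to 4.18 CPM and rose by 2.15 ± 0.33 (edgeR, adjusted p = 0.0236). Whether the counting used strand is not given in the sources used here; its reads and those of Atcay, with a change of -0.04 ± 0.32, may not be separable.

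Gpr179, at 0.307 to 0.803 CPM and 1.41 to 2.11 CPM, rose by 1.61 ± 0.29 (edgeR, adjusted p = 0.0416). Exoc6, a subunit of the exocyst that tethers vesicles, rose by 0.71 ± 0.09, Rin1, a RAS effector, by 0.85 ± 0.15, and Tmem125 by 0.74 ± 0.12 (edgeR, adjusted p = 0.0134, 0.0449 and 0.0295). Hoga1, a mitochondrial aldolase of hydroxyproline breakdown, rose by 1.06 ± 0.20 (edgeR, adjusted p = 0.0482). Of these, Exoc6 was called in 5 of the 9 fits that leave out a library, and Gpr179, Tmem125 and Hoga1 in 1.

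Genes that handle arsenic were examined next. As3mt, the methyltransferase that makes MMA and DMA from inorganic arsenic, was at 30.6, 27.9, 28.1, 28.7 and 28.4 CPM in the controls and at 25.6 to 34.0 CPM on arsenic. The groups lay on top of each other, with a change of 0.02 ± 0.09 (edgeR, adjusted p = 0.949). None of the 17 tested genes of arsenic handling was called, and their median was 0.06, with changes from -0.75 to 0.74. In 2 of the 17 all arsenic libraries lay above all controls, against 4.23% of all genes, and in 0 below. The smallest p in the list was that of N6amt1, a methyltransferase gene, whose groups did not overlap at 6.25 to 9.51 CPM and 10.6 to 12.8 CPM, a change of 0.56 ± 0.13 (edgeR, adjusted p = 0.0902). With the position score as a covariate N6amt1 was called higher (0.58 ± 0.12, edgeR, adjusted p = 0.0148). In that fit this list had 2 higher calls and 1 lower, against 3.21% and 2.91% of all genes. Gsto1, an omega-class glutathione transferase, had a change of -0.06 ± 0.28 whose sign turned when control 1, at 616 CPM against 242 to 355 CPM in the other controls, was left out (0.24).

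Of 33 tested genes of the NRF2 and oxidative stress list, none was called, and the median was 0.02. Hmox1, heme oxygenase, had a change of 0.15 ± 0.15, Txnrd1, thioredoxin reductase, of -0.09 ± 0.14, and Slc7a11, the cystine transporter, of -0.27 ± 0.48 at 0.631 to 4.26 CPM. Nqo1, a quinone reductase, was at 72.1, 43.1, 18.2, 23.5 and 38.9 CPM in the controls and 29.0, 56.5, 41.1 and 56.7 CPM on arsenic. It was lowest in controls 3 and 4 and arsenic 11, the 3 libraries with the highest position score. With that score as a covariate Nqo1 was 0.43 higher and Gclc, the first enzyme of glutathione synthesis, 0.33 higher (edgeR, adjusted p = 0.0459 and 0.04), and 5 of the 33 were called in all, each higher, against 3.21% of all genes called higher in that fit.

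Mt1, a metallothionein that binds zinc and other metals by its cysteines, was the clearest case of this kind. It was at 62.6, 30.6, 18.3, 19.8 and 24.7 CPM in the controls and at 51.2, 122, 65.4 and 84.0 CPM on arsenic. Control 1 alone overlapped the arsenic libraries, above arsenic 11. The change of 1.37 ± 0.40 was not called (edgeR, adjusted p = 0.166). With the Hox position score as a covariate it was 1.53 ± 0.18 (edgeR, adjusted p = 0.00333), and without control 1 it was 1.79 (edgeR, adjusted p = 0.0318). The fit without control 1 was the only 1 of the 9 that leave out a library to call Mt1. In the others its adjusted p in edgeR reached 0.405. Mt2 had no count in any library and gives no reading. None of the zinc transporters in the same list was called in the plain comparison; with the position score as a covariate Slc39a4, an importer of zinc, was called lower (-0.44 ± 0.12, edgeR, adjusted p = 0.0474).

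The Mt1 window (chr8:94178839-94179138, plus strand, GRCm38.p6) is printed because metal response elements mark this gene; the capitals are matches to TGCACNC or TGCGCNC on either strand, a short motif present in 25.7% of all windows and in 39.4% of the tested genes with a window.
Mt1: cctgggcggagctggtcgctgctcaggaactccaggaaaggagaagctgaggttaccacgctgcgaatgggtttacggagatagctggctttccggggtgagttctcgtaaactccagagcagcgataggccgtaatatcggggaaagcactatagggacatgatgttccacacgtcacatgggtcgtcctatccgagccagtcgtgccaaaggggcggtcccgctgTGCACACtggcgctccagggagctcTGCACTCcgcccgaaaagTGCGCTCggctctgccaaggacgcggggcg
It had 3 matches.

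Some genes that respond within minutes to growth signals had large changes that did not pass in the plain comparison. Sgk1, a kinase that raises sodium absorption and is induced by aldosterone and glucocorticoids, was at 344, 301, 369, 359 and 175 CPM in the controls and at 122, 88.0, 173 and 139.8 CPM on arsenic. The groups barely failed to overlap, at control 5 and arsenic 13, and the change of -1.24 ± 0.25 did not pass (edgeR, adjusted p = 0.0627), though it did with the position score as a covariate (-1.25, edgeR, adjusted p = 0.044). Dusp6, the phosphatase that answers ERK signalling, was at 78.8 to 146 CPM and 38.6 to 66.5 CPM, a change of -1.11 ± 0.22 (edgeR, adjusted p = 0.0627). None of the 18 genes of EGF receptor and ERK feedback and none of the 24 immediate early genes was called. Their medians were -0.20 and -0.27. In 5 of the 18 every arsenic library lay below every control, against 3.66% of all genes, and in 0 of the 24. Without control 1, Dusp6 and Fos, which had a change of -1.12 ± 0.29, were called lower (edgeR, adjusted p = 0.0347 and 0.0288).

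The lists of epithelial cell types held no call in the plain comparison. No member was called among 26 colonocyte genes (median -0.06), 19 goblet cell and mucus genes (-0.22), 15 tested stem and Wnt target genes (-0.01), 25 cell cycle genes (-0.06), 13 tested enteroendocrine genes (-0.21) or 22 junction genes (-0.03). Muc2, the main mucin, was at 4959 to 9254 CPM over the 9 libraries, with control 1 highest. Muc13, a membrane mucin, was at 2095 to 2928 CPM in the controls and 1913 to 2072 CPM on arsenic, with a change of -0.34 ± 0.11 (edgeR, adjusted p = 0.195). With the position score as a covariate Muc13 was called lower (-0.35 ± 0.09, edgeR, adjusted p = 0.0337), as was Tph1, the serotonin-making enzyme of enteroendocrine cells (-0.68 ± 0.15, edgeR, adjusted p = 0.026). In that fit Cdx2, a factor of intestinal identity in the colonocyte list, was called higher (0.39 ± 0.10, edgeR, adjusted p = 0.038).

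Lists of immune, stromal and barrier-defence genes held no call either. The median was -0.17 for 32 interferon response genes, -0.30 for 19 macrophage and myeloid genes, 0.22 for 21 tested smooth muscle genes and 0.02 for 17 fibroblast genes. For the 16 B cell and follicle genes it was -0.55, and it turned to 0.07 without control 4 and to 0.56 without controls 1, 3 and 4. Cd79a, a B cell receptor subunit, was at 16.5 and 20.6 CPM in the distal controls 3 and 4 and at 1.49 to 6.94 CPM in the other 7 libraries. Lypd8, which keeps bacteria away from the colon surface, had a change of -0.34 ± 0.11 (edgeR, adjusted p = 0.209). Il17a and Csf2 had no count in any colon library.

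The colon was then set beside the other 2 regions, whose libraries were separate but may come from the same mice. Of the 107 genes, 95 were also called in the cecum and in the same direction, which is 88.8% of the colon list and 2.42% of the 3933 genes called there. In the ileum 46 were called in the same direction, 43.0% of the colon list and 3.87% of the 1190 called there. The share of all genes called was 25.2% in the cecum (11.3% higher and 13.9% lower) and 7.3% in the ileum (4.02% higher and 3.28% lower). The difference of the arsenic effect between colon and cecum was called for no gene of 17763 in edgeR (1294, or 7.28%, at an unadjusted p under 0.05), for 16 in DESeq2 and for 112 in limma voom with sample weights. The same difference had 2 calls without control 1 and 1 without arsenic 12.

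Banp, Cirbp, Hsph1 and Chordc1 had like values in all regions. Banp changed by -1.69 in the colon, -1.49 in the cecum and -1.66 in the ileum, and Cirbp by 1.38, 1.34 and 1.15. Hsph1 changed by -1.55, -1.55 and -1.51, and its difference from cecum and ileum had adjusted p of 0.992 and 0.902 in edgeR. Rfx2 was lower in the colon (-0.98) and at 0.09 in the cecum, but this difference was not called (edgeR, adjusted p = 0.396). A p that misses the threshold does not show equal effects.

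**Figure D5:**
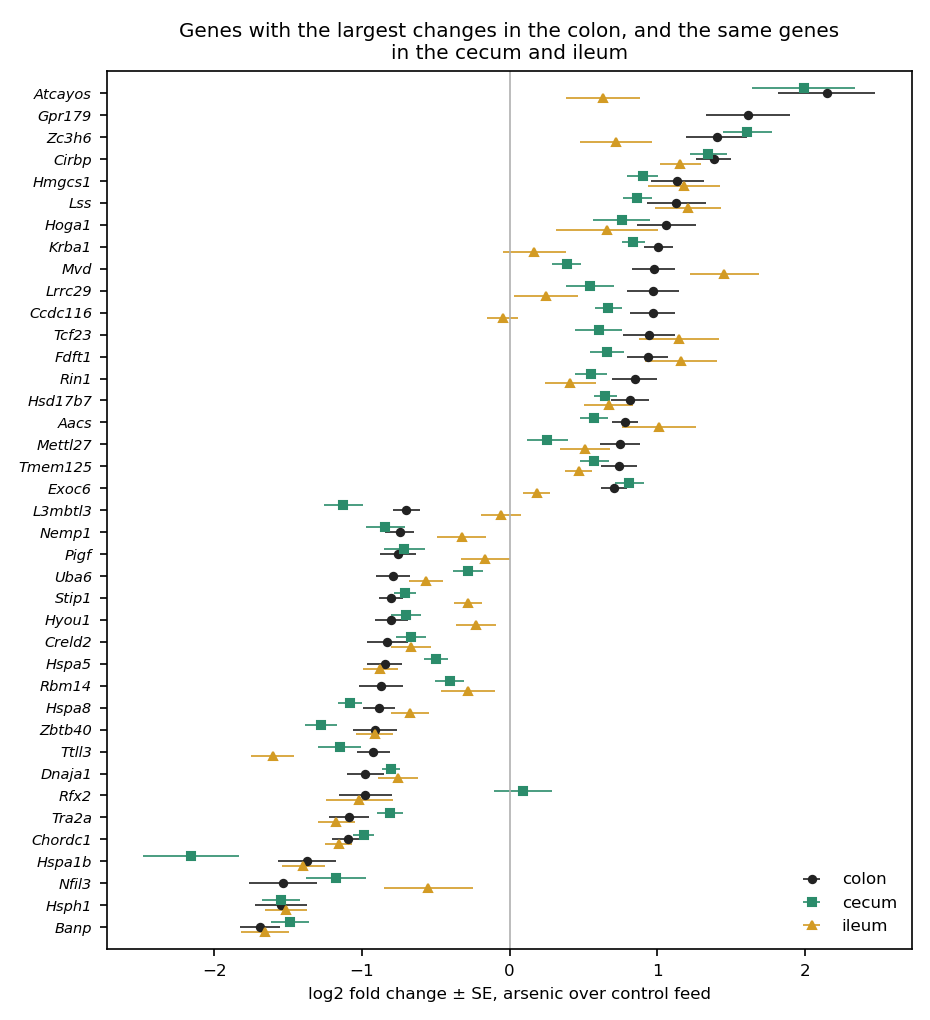
Log2 fold change with its SE (x axis, above 0 means higher on arsenic) of named genes with the largest changes in the colon (circles), and of the same genes in the cecum (squares) and ileum (triangles) where tested. The members were picked on their colon values; Banp, Hsph1 and Chordc1 lie together in the 3 regions, while Krba1, Ccdc116 and Stip1 are nearer to 0 in the ileum.

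Against the ileum the effect differed for 399 genes (2.25%), 91 (0.512%) with the higher value in the colon and 308 (1.73%) with the lower. Leaving out 1 colon library gave 93 to 488 such genes, the fewest without arsenic 15. RLE scaling gave 252. No ileum library was left out, so the dependence on single ileum libraries was not tested. Ileum arsenic 15 had the lowest TMM scaling factor of the 27 libraries (0.824). Dhcr7, the sterol enzyme that did not follow its pathway in the colon (-0.23), rose by 1.20 in the ileum, a difference of -1.47 ± 0.19 (edgeR, adjusted p = 0.0008). Bcorl1, a corepressor, had -0.81 in the colon and 0.86 in the ileum, a difference of -1.72 ± 0.25, and Chd4, a remodeller of the NuRD complex, had -0.07 and 0.95, a difference of -1.06 ± 0.15 (edgeR, adjusted p = 0.00117 for each). Nectin1, an adhesion protein, and Lad1, a basement membrane anchor, had differences of -1.59 ± 0.27 and -1.07 ± 0.18, with rises of 1.11 and 1.25 in the ileum (edgeR, adjusted p = 0.00799 for each difference). Gpx7, a peroxidase of the endoplasmic reticulum, fell by 1.48 in the ileum and had 0.14 in the colon.

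Among the genes that moved most in the colon, Krba1 (difference 0.79, edgeR, adjusted p = 0.0461) and Ccdc116 (0.97, adjusted p = 0.00799) had a higher value there than in the ileum, where their changes were 0.17 and -0.05. Stip1 (-0.57, edgeR, adjusted p = 0.0186) and L3mbtl3 (-0.68, adjusted p = 0.0347) had a lower value, with -0.28 and -0.06 in the ileum. These genes were picked on their colon values, which favours a difference from the ileum. In the cecum Krba1, Ccdc116, Stip1 and L3mbtl3 changed by 0.84, 0.67, -0.71 and -1.13, and their differences between colon and cecum were not called. For Hspa5, Creld2, Hmgcs1, Lss and Fdft1 the difference from the ileum was not called, with values from -0.27 to -0.01. In all, 43 genes were called in all 3 regions.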

How the data were processed

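Messenger RNA was measured in 27 libraries of mouse ileum, cecum and colon; the 9 colon libraries carry the comparison. The deposited table holds whole-number read counts per gene. Per the submitters' processing notes HISAT2 2.1.0, SAMtools, HTSeq 0.6.0 and DESeq2 1.6.3 were used; genome build and strand setting are not given in the sources used here. Counts were fitted with edgeR 4.0.16 (R 4.3.3; low-count filter with a minimum of 10, TMM scaling, robust quasi-likelihood F-test, Benjamini-Hochberg threshold 0.05), one term for diet. Levels are TMM-scaled CPM, and errors are SD for levels and SE for log2 fold changes. In the edgeR fits this SE was worked back from the test, as the absolute log2 fold change over the square root of F. Differences between regions were interaction terms over all 27 libraries. Alternatives used limma 3.58.1 and DESeq2 1.42.0, other scalings and filters, and libraries left out; the Hox position covariate and the sets of 3 left-out libraries were added after seeing the data. Tested on simulated data, the colon fit recovered 47% of genes changed 2-fold and 86% of those changed 4-fold. Totals of 16429521 to 17744718 counts set the precision; 147 genes without a symbol are not named. Named genes were the 20 largest rises and 20 largest falls among called genes averaging 1 CPM or more whose groups do not overlap, up to 3 called genes of each list (or the gene with the smallest p), 10 fixed arsenic-related genes and 10 genes per region difference, without predicted genes and immune receptor segments; further list members are given as values. The members and the 66 lists were chosen with earlier results of these data known. RefSeq promoter windows (GRCm38.p6) matched 83 of the 107 called genes. Some members of the lists are counted but not reported here by name.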

Additional observations from a re-analysis of the deposited data

Results flagged for a closer look

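Among 246 groups of colon values examined, 20 held a library far from the others of its group; chance alone gives about 1 in 20. Control 1 stood apart for Hmgcs1 (118 CPM, others 171 to 188), Fdft1 (64.7, others 84.2 to 88.6), Ccdc116 (12.3, others 15.2 to 15.8), Mt1 (62.6, others 18.3 to 30.6), Sod2 (117, others 90.1 to 95.4) and Chd4 (213, others 147 to 159). Control 4 was high for Hspa5 (790 CPM, others 585 to 632) and Abcc2 (12.2, others 5.68 to 6.55). Control 5 was high for Top2a (70.0 CPM, others 44.6 to 51.5), and control 2 was low for Col15a1 (18.5, others 24.5 to 26.9).

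Arsenic 11 was high for the summed pancreas markers (171 CPM, others 2.22 to 4.47), for Cpb1, a pancreatic carboxypeptidase (20.1, others 0.412 to 0.914), and for Mzb1 (8.09), Elavl4 (12.1) and Dhcr7 (94.9), and low for Ndufb3 (38.2). Arsenic 12 was high for Hmox1 (7.66 CPM) and low for Slc7a11 (1.14). Arsenic 13 was high for Lypd8 (11800 CPM), and arsenic 15 was low for mt-Nd4 (2480).

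The effect of arsenic differed between colon and ileum, by edgeR's test of the difference itself, for Dhcr7 (-1.47 on the log2 scale), Bcorl1 (-1.72), Nectin1 (-1.59), Lad1 (-1.07), Chd4 (-1.06), Pigs (-0.89), Sh3bp5l (-0.69) and Pld3 (-0.57). The difference was positive for Gpx7 (1.58) and Zfp950 (1.11).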

How the results depend on the processing

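The number of calls changed with the processing. The direction of all 107 called genes held in every alternative, which their non-overlapping groups nearly fixed in advance. Against 107 calls (60 higher, 47 lower), DESeq2 gave 592 (281 and 311), limma voom with sample weights 609 (330 and 279), and a fit of all 27 libraries 493 (243 and 250). Among alternatives chosen after seeing the data, the Hox position covariate gave 1010 (530 and 480), the same without control 1 1101 (575 and 526), controls 1, 3 and 4 left out 28 (10 and 18), and controls 2 and 3 and arsenic 11 left out 0 (0 and 0; 1275 at an unadjusted p under 0.05). Leaving out 1 library gave 6 to 351 calls (2 to 180 higher, 4 to 171 lower). Differences from the cecum numbered 112 in voom, 16 in DESeq2, 2 with a replicate block and 0 to 2 without 1 colon library. Those from the ileum numbered 252 with RLE scaling, 694 in DESeq2, 330 with the replicate block and 93 to 488 without 1 colon library. The 2 diets share no replicate number in the colon, so no paired analysis of the main comparison was possible because a block needs shared numbers; across regions, same-numbered libraries correlated from -0.103 to 0.307 in 24 pairs, with 14 above 0.1 (median 0.12), against 14 of 97 pairs of other numbers (median -0.03). As not every same-numbered pair passed 0.1, the numbers were not taken to pair the samples, although 7 of the 8 pairs of cecum and colon did. This cut cannot show that the regions came from different mice. The main differences between regions treat all 27 libraries as independent. With the replicate block, 256 of the 399 differences from the ileum were called again.

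None of the 42 called genes that are named changed sign, which their non-overlapping groups nearly fixed in advance. Among uncalled genes, 27 values did change sign. With controls 1, 3 and 4 left out these were Cd72 (0.17), Mzb1 (0.15), Etv1 (-0.22), Wt1 (-0.085), Pck1 (0.0091), Spink1 (0.061), Gsto1 (0.012), Slc7a11 (0.34) and Gpx7 (-0.15). With controls 2 and 3 and arsenic 11 left out they were Cpb1 (0.93) and As3mt (-0.018), and in voom Etv1 (-0.076) and Gsto1 (0.18). With the position covariate Gsto1 turned (0.062), and without control 1 as well Gsto1 (0.15), Txnrd1 (0.027) and Chd4 (0.045). Leaving out 1 library moved Etv1 from -0.0477 to 0.139, Wt1 from -0.0584 to 0.552, As3mt from -0.0652 to 0.0834, Gsto1 from -0.204 to 0.236, Slc7a11 from -0.497 to 0.225, Txnrd1 from -0.17 to 0.0451 and Chd4 from -0.114 to 0.0443. The causes were not tested. A gene without a call at this number of libraries may still differ.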

Other observations

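With the Hox position score as a covariate, which was chosen after seeing the data, several lists without a call in the plain comparison held some. Of 25 genes of fatty acid oxidation and ketogenesis, 5 were higher on arsenic and none lower, against 3.21% and 2.91% of all genes in that fit, among them Acot2 (0.85 ± 0.21 on the log2 scale), Acaa2 (0.36 ± 0.09), Acads (0.34 ± 0.08) and Cpt1a, the gate of fatty acids into mitochondria (0.27 ± 0.07). In the plain comparison their values were 0.65, 0.13, 0.20 and 0.24. Among NRF2 genes, Gsta1 (0.71 ± 0.15) and Ugt1a6a (0.60 ± 0.13), both conjugating enzymes, were higher in that fit.

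In the same fit P4ha1, a collagen prolyl hydroxylase, was lower (-1.03 ± 0.11) and Ndrg1 higher (0.79 ± 0.08), although both are hypoxia-responsive genes. The list of the clock activator arm also holds the repressors Cry1 and Nfil3, and Nfil3 was already called in the plain comparison. With the covariate the activators Arntl (-0.73 ± 0.16) and Clock (-0.34 ± 0.07) and the repressor Cry1 (-0.59 ± 0.13) were lower beside Nfil3. The immunoglobulin genes Igha (-0.81 ± 0.17) and Igkc (-0.66 ± 0.14) and the tight junction gene Cldn2 (-0.72 ± 0.16) were lower. Of the arsenic handling list, Slc34a2, a phosphate transporter, was lower (-0.74 ± 0.14) and Slc20a2, another, higher (0.42 ± 0.09), beside the higher N6amt1.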
